A study of Mus musculus with 6 samples.

Results

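The sham only Runx1 regions are the places in the mouse genome where a Runx1 peak was called in fibroblasts of sham-injured lung and none was called at either time after bleomycin. Runx1 peaks of 3 chromatin immunoprecipitation sequencing (ChIP-seq) libraries on chromosomes 1 to 19 were merged into union regions wherever they shared 1 bp or more, and regions that held a sham peak and no D14 or D56 peak were kept. They numbered 2004 of 56619 regions, or 8.37% of the 23947 regions with a sham peak. Each held exactly 1 sham peak. The members were chosen by the peak calls of the 3 libraries, so the sham peak values below describe them and test nothing.

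The cells were GFP-positive lung fibroblasts of Col1a2-CreERT2;mTmG mice, in which Cre driven by the collagen gene Col1a2 switches a membrane reporter from red to green. All 3 conditions share this genotype and the antibody against Runx1. The sham library came from lungs with a sham injury, and the D14 and D56 libraries from lungs taken 14 and 56 days after bleomycin was given into the trachea, which injures the lung and leads to fibrosis. There was 1 ChIP library and 1 input library per condition, so conditions are unreplicated and their differences carry no test. How many mice were used, and their age, sex and tamoxifen schedule, is not given here. Sham had 48816721 ChIP tags and 24611 peaks, D14 had 78744701 and 55378, and D56 had 49669125 and 14704. Ranges in parentheses after a share are Wilson intervals at 95%, which reflect counting error alone, and regions of 1 library are not replicates.

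Runx1 is a DNA-binding transcription factor that pairs with Cbfb and recognises a short core sequence. It can activate or repress genes together with other factors, and in fibroblasts it is known from work on mesenchymal cell fate and scarring. Immediate-early genes such as Atf3, Btg2 and Dusp1, which recur below, are transcribed within minutes of a stimulus and encode regulators of transcription and signalling.

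Few sham only regions lay at promoters, so the promoter sequences below show what the exceptions look like. The summit of a sham only region fell in 22 of 31365 promoter windows, each running from 250 bases before a RefSeq transcription start to 50 after it, and 13 of the 22 belong to genes with a name. The 250 bases before the start are printed for 3 of them, read 5′ to 3′ on the gene's strand (RefSeq, GRCm38.p6, the assembly of mm10), and were chosen after their values were seen. Capitals mark the RUNX core TGTGGT or its reverse complement ACCACA, and the last base printed is the base before the start. Cd68 encodes a lysosomal protein of macrophages, Ifitm1 an interferon-induced membrane protein, and Lsmem1 a leucine-rich single-pass membrane protein.
Cd68: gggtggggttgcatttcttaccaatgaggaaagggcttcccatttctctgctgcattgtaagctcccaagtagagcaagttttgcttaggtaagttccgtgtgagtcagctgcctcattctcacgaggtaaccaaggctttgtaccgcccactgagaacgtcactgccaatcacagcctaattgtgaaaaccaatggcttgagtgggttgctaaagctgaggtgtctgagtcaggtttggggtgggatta
Ifitm1: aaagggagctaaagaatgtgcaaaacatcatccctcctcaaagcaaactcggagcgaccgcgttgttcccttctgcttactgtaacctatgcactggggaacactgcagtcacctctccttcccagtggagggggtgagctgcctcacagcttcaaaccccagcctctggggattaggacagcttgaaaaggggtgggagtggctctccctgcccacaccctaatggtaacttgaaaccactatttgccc
Lsmem1: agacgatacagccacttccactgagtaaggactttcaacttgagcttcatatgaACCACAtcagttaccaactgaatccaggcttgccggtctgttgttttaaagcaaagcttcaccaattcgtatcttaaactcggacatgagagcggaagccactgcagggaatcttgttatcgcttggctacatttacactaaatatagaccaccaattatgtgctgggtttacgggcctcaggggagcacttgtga

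The Cd68 stretch is chr11:69666171-69666420 on the minus strand, and the sham summit lay 47 bases before the start with a fold enrichment of 4.72. The gene Eif4a1 (chr11:69666936-69672423) lies beside this region (chr11:69665859-69666790), so the region cannot be assigned to Cd68 alone. The Ifitm1 stretch is chr7:140967826-140968075 on the plus strand, with the summit 71 bases before the start and a fold of 4.36. The Lsmem1 stretch is chr12:40199316-40199565 on the minus strand, with the summit 40 bases before the start and a fold of 3.14. The Lsmem1 stretch holds 1 core and the other two hold none. Over the whole window of 300 bases, the core was in 3 of the 22 promoters with a sham only summit (13.6%, 4.75 to 33.3) and in 5235 of all 31365 (16.7%). The AP-1 sequence TGANTCA was in 1 of the 22 (4.55%) and in 7.85% of all windows, and the TEAD sequence GGAATG, searched on both strands like the others, in 2 (9.09%) and 14.6%. With 22 windows these shares do not tell the promoters apart from the rest. The 22 windows had a median of 5 CG dinucleotides, against 7 over all windows and 24 in the 6949 windows that held the summit of a region called in all 3 libraries. A match is only a match of letters. Promoters called in every library were thus richer in CG than the few called in sham alone.

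Sham only regions were weak within the sham list. Fold enrichment is the authors' ratio of the ChIP signal height to the local background, and its values are compared here within the sham list alone. Among sham only regions the fold ran from 2.26 over a median of 3.97 to 7.79. Sham peaks shared with D14 had a median of 4.32 and a highest value of 13.8, and sham peaks of regions called in all 3 libraries had a median of 6.36 and reached 35.1. The signal height at the summit (pileup) had medians of 23, 27 and 51 in the same order, and the peak width medians of 228, 265 and 473 bp. The median −log10 q was 6.03 in sham only regions and 23.1 in those called throughout. When sham peaks were split by fold into 10 bins of equal number, 394 of 2462 peaks in the lowest bin and 474 of 2461 in the next were sham only (19.3% in the latter), as were 9.59% of the fifth and 0 of 2461 in the highest. The upper bound of that 0 is 0.156%. When each list was cut to its 14704 strongest peaks by −log10 p, 2029 regions were sham only but just 201 of the 2004 were among them, since most members fall below that limit in the sham list. Sham only regions and sham peaks shared with D14 overlapped over most of their range, as the plot of fold by class shows.

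**Figure D1:**
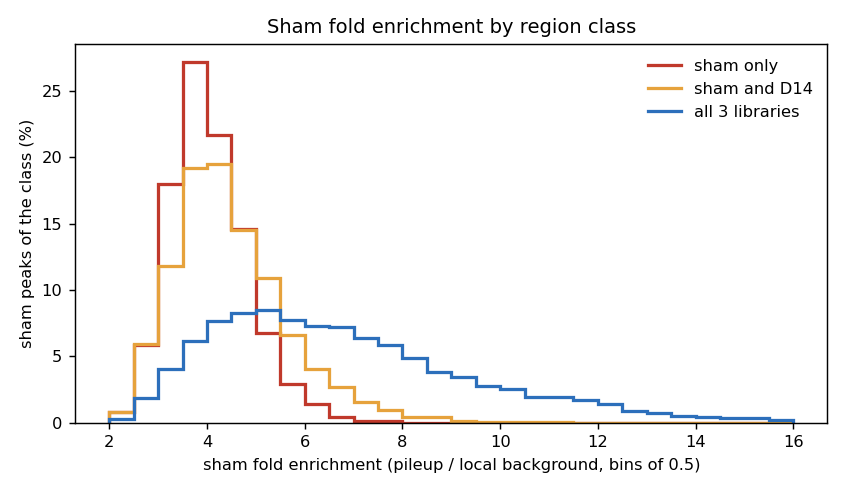
Sham fold enrichment (x axis, bins of 0.5) of sham peaks in sham only regions, in regions shared with D14 and in regions called in all 3 libraries; the y axis is the percent of each class, and values above 16 are not drawn. Sham only regions peak at low folds (median 3.97), close to those shared with D14 (4.32) and below those called throughout (6.36).

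Many sham only regions were near neighbours of peaks called after bleomycin. The nearest D14 peak was less than 1 kb away for 757 of the 2004 (37.8%, 35.7 to 39.9) and less than 10 kb away for 78.4%, with a median of 2.03 kb. For the nearest D56 peak the shares were 17.8% and 48.0%, with a median of 10.9 kb. The D56 list is the shorter one, so its distances cannot be set against those to D14. The next sham peak of any class was less than 1 kb away for 40.4%. The overlap rule cut through a continuum. The closest member missed a D14 or D56 peak by 1 base (chr11:120251103-120251282, fold 3.99), and 16 members were fewer than 20 bp away (median fold 3.73). On the other side of the rule, the smallest overlap that removed a sham peak was 2 bp (chr11:69040937-69041190, fold 3.34), and 21 sham peaks shared 1 to 20 bp (median fold 3.50). The caller's fragment length, which sets the shortest peak, was 166 bp in sham, 132 bp at D14 and 150 bp at D56, and its part in these near misses was not tested.

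**Figure D2:**
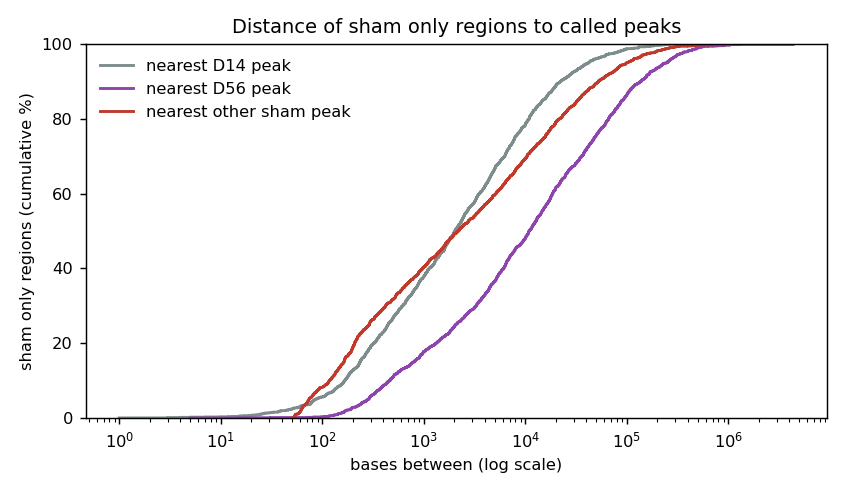
Cumulative percent of the 2004 sham only regions (y axis) by the bases to the nearest D14 peak, D56 peak and other sham peak (x axis, log scale). The D14 curve passes 37.8% at 1 kb and 78.4% at 10 kb, and the D56 curve 17.8% and 48.0%.

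The 15 sham only regions with the highest folds ran from 6.53 to 7.79, and 8 of them lay inside a named gene. The highest was in Ntrk2, the gene of the BDNF receptor TrkB (chr13:58838177-58838458, fold 7.79, pileup 36), with the summit 31.8 kb from the gene start and the nearest D14 peak 3.02 kb away. The next was past the end of Btg2, an antiproliferative gene (chr1:134066744-134068186, fold 7.61, pileup 50, width 1443 bp). It had the highest −log10 q of all members, 26.6. Kcnt2, a sodium-activated potassium channel gene, held a region (chr1:140381166-140381495, fold 7.59) with no D14 peak within 74.5 kb. Pde4b, which encodes a cAMP-degrading phosphodiesterase, held one with a fold of 7.11 (chr4:102563304-102563616).

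Other genes of these 15 regions were Eif2b3, a subunit gene of the translation factor eIF2B (fold 6.82), Arhgap26 (6.69), and Ddr2, a collagen receptor gene of fibroblasts (6.64). Cbx5, the gene of heterochromatin protein HP1 alpha (6.60), and Pdpn, the gene of podoplanin (6.59), completed the regions inside genes. The region near Immp2l, a mitochondrial peptidase gene (6.79), was 1.30 kb before its start. Regions 49.7 kb from Lonrf2 (7.23) and 61.4 kb from Thbs1, the thrombospondin 1 gene (6.67), lay farther away, and the remaining 3 had no named protein-coding gene within 100 kb. The Ddr2 and Eif2b3 regions were 566 and 722 bp from a D14 peak, and the Immp2l region 870 bp. Strong sham only regions were thus found both beside D14 peaks and far from any.

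Sham only regions were mostly away from gene ends, a term that here covers starts and ends of all gene types. Within 1 kb of such an end were 18.5% of the 2004 summits (16.8 to 20.2), against 43.8% of all regions with a sham peak, 59.8% of those called in all 3 libraries, 24.7% of those shared by sham and D14 and 18.5% of D14 only regions. Inside the nearest protein-coding gene lay 49.7%, and over 10 kb from any lay 31.0%. Up to 10 kb downstream of the nearest gene lay 186 regions (9.28%, 8.09 to 10.6) and up to 10 kb upstream 112 (5.59%, 4.67 to 6.68). In regions shared by sham and D14 the order was the other way, with 5.11% downstream and 9.27% upstream, and in regions called throughout the shares were 2.79% and 26.9%. D14 only regions had 5.01% downstream and 6.86% upstream. Strand came from the RefSeq promoter table, and 4.39% of sham only summits lay beside a gene whose strand it does not give.

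The downstream share rose with clustering. Sham only regions less than 5 kb from another were joined into clusters: 523 of the 2004 (26.1%, 24.2 to 28.1) had such a neighbour, and 175 lay in 19 clusters of 5 or more. Of the 1481 regions alone, 4.79% lay downstream of the nearest gene and 5.81% upstream. The downstream share was 14.6% in pairs and 16.7% in clusters of 3 or 4. In clusters of 5 or more, 62 of 175 lay downstream (35.4%, 28.7 to 42.8) and 12 upstream (6.86%, 3.97 to 11.6). Of the rest, 71 lay inside, 19 over 10 kb away and 11 beside a gene without a given strand (6.29%). The cluster at Fbxl18 and Actb, where Actb has no given strand, held 4 of the 12 upstream. Without the largest cluster, at Atf3, the downstream share was 35.1%. Clusters of 5 or more held 8.73% of sham only regions (7.57 to 10.0), against 1.17% of regions shared by sham and D14, 0.491% of those called throughout and 1.44% of the 32186 D14 only regions. In the clusters of sham and D14 regions 20.2% lay downstream (13.5 to 29.2), in those of D14 only regions 4.97% and in those of regions called throughout 1.52%. Regions of a cluster share a locus and are not independent, so these intervals are too narrow. By fold, regions in clusters of 5 or more were not stronger: their median was 3.74, against 4.01 for regions alone. Their median width went the other way, 286 bp against 222 bp. The next sham peak of any class lay a median of 200 bp from regions in clusters of 5 or more. For regions alone the median was 6375 bp. Clusters were formed by closeness, so part of this gap follows from the choice. Whether regions of a cluster are separate binding sites or pieces of a broader signal was not tested. Pileup was not compared between clustered regions and regions alone.

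**Figure D3:**
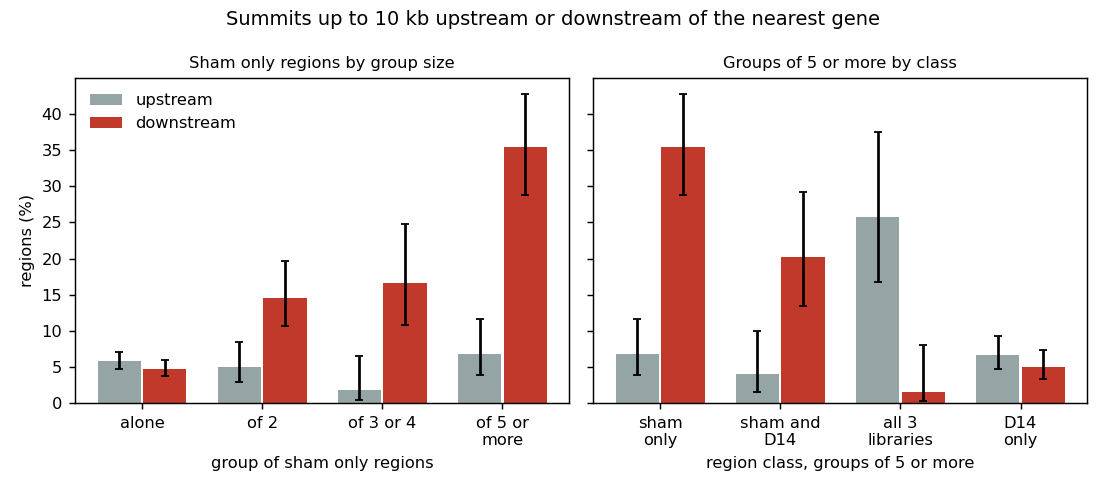
Percent of region summits up to 10 kb upstream or downstream of the nearest protein-coding gene (bars, with 95% Wilson intervals), for sham only regions by cluster size (left) and for clusters of 5 or more by region class (right); clusters are called groups on the axes. The downstream share of sham only regions is 4.79% for regions alone and 35.4% in clusters of 5 or more.

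The largest cluster was at Atf3, a stress-induced transcription factor of the ATF/CREB family, where 24 sham only regions lay in 23.5 kb (chr1:191158687-191182200). Atf3 (chr1:191170296-191183333, minus strand) had 22 of them in the gene or within 10 kb, 13 inside the gene and 9 past its end, and none before its start. Their folds ran from 2.45 over a median of 3.95 to 4.99. The strongest, 4.69 kb into the gene, was chr1:191178484-191179042, with a pileup of 38. The farthest summit lay 8.60 kb past the gene end. The 22 are called regions and need not be separate binding sites. The neighbouring Fam71a had 15 sham only regions by the same 10 kb rule, many of them shared with Atf3. Over the cluster's span, sham peaks covered 11.9 kb (50.5%), D14 peaks 0.651 kb and D56 peaks 0.166 kb. The start of Atf3 carried a region called in all 3 libraries, with a sham fold of 16.3, and the gene had 0 D14 only regions.

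Irf1, the gene of interferon regulatory factor 1, had a cluster of 12 regions over 24.6 kb. Of the 10 in the gene or within 10 kb (chr11:53770014-53778374, plus strand), 4 lay inside and 6 past the end. Their folds ran from 2.75 to 5.84. The strongest began at the gene end and was 1744 bp wide, the widest of all sham only regions (chr11:53778298-53780041). Sham peaks covered 8.02 kb of the span, D14 peaks 0.696 kb and D56 peaks none.

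Btg2 had 10 sham only regions, 2 inside the gene (chr1:134074865-134079155, minus strand) and 8 past its end, out to 10.4 kb. Their folds ran from 2.97 to 7.61. Sham peaks covered 66.8% of that cluster, D14 peaks 6.97% and D56 peaks 0. Dusp1, which encodes a MAP kinase phosphatase, had a cluster of 12 that lay wholly past the end of the gene (folds 2.55 to 5.24), with sham peaks over 63.7% and D14 peaks over 10.6% of the span. The cluster next to Mcl1, an anti-apoptotic BCL2 family gene, had 12 regions past its end and over the neighbouring Adamtsl4, a microfibril-associated gene that runs toward it. Of these, 5 were within 10 kb of Mcl1, all past its end. The cluster of 11 at Rtn2, a reticulon gene, lay past the end of the AP-1 gene Fosb, which had 4 within 10 kb, all past its end. Mknk2, the gene of a MAP kinase-interacting kinase, had 9, of which 5 were inside and 4 past the end. Irf1, Btg2, Dusp1, Mcl1, Fosb and Mknk2 each had 1 to 4 regions called in all 3 libraries in the gene or within 10 kb.

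**Figure D4:**
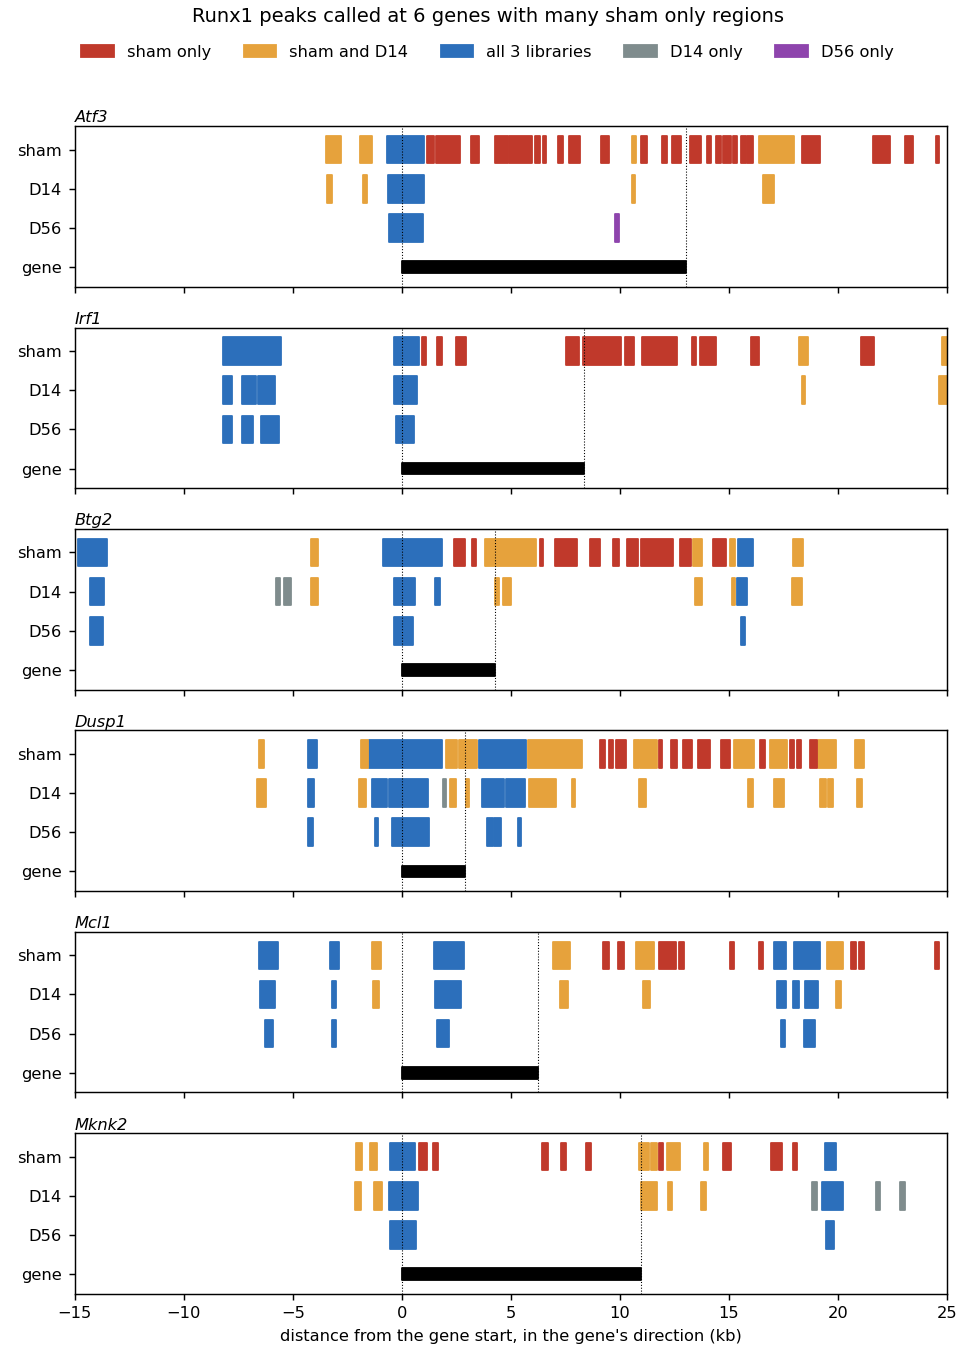
Runx1 peaks of the 3 libraries (rows) at 6 genes, by distance from the gene start in the gene's direction (x axis, kb); the black bar is the gene and the colour the class of the union region. Sham only peaks (red) lie past the gene end at all 6 genes, and also over the gene body at Atf3, Irf1, Btg2 and Mknk2. Within 10 kb, 0 lie before the start of any of the 6 genes. Blue marks peaks called in all 3 libraries.

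Together the 19 clusters spanned 245 kb. Sham peaks covered 108 kb of it, D14 peaks 27.0 kb and D56 peaks 8.45 kb, whereas the whole lists covered 10.8, 20.4 and 5.23 Mb. The clusters were chosen for sham peaks without the others, so these values describe the choice. They held 2 D14 only regions in all, a number not set against the density of such regions elsewhere, and 17 of the 19 held a region shared with D14. Ubb, a polyubiquitin gene, had 7 regions, 1 before the start, 0 inside and 6 past the end, and H3f3b, which encodes histone H3.3, had 5, all past the end. Both were named after their values were seen. So was Malat1, an abundant nuclear noncoding RNA, with 9 regions, 7 inside and 2 past its end.

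Actb, the gene of cytoplasmic beta-actin, had 10 sham only regions (folds 2.82 to 4.85), and its neighbour Fbxl18, an F-box protein gene, had 11. Ier2, an immediate-early gene, had 8 (2.26 to 4.59), and for these clusters the full direction was not analysed, since the promoter table gives no strand for Actb and Ier2. At Nr2f2 and Klf4 the regions lay mainly inside the gene or on both sides of it. Nr2f2, which encodes the orphan receptor COUP-TFII, had 9 regions, 7 of them inside and 2 past the end. Klf4, a Krüppel-like factor gene, had 8, of which 2 lay before the start, 3 inside and 3 past the end. Hoxa3 and Hoxb3, which set positional identity, had 9 each, next to 13 and 14 regions shared with D14, and Hoxa2 had 8. Their folds reached 6.07 (Hoxa2 and Hoxa3) and 5.41 (Hoxb3). Of the 9 regions at Hoxa3, 3 lay inside the gene and 6 past its end. Nfkbiz, which encodes a nuclear IκB protein, had 8 with folds of 3.38 to 6.12. The regions at Hoxb3 and Nfkbiz formed no cluster of 5 or more, and no strand was given for either gene.

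A single cluster overlapped miRNA genes, whose mature sequences are on record. The cluster beside Zswim4 (chr8:84206745-84215173, 5 regions, folds 3.04 to 4.34) spans the hairpins of Mir23a, Mir27a and Mir24-2, with 3 sham only regions within 5 kb of each. Of 919 miRNA hairpins on these chromosomes, 25 (2.72%) had a sham only region within 5 kb, and the 4 hairpins of this locus were the ones with 3. The main arms are shown to identify the genes (RefSeq, GRCm38.p6); capitals mark the seed, bases 2 to 8, which differs between all 3.
mmu-miR-23a-3p: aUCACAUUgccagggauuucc
mmu-miR-27a-3p: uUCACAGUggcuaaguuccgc
mmu-miR-24-3p: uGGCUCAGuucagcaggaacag

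Gene lists were then counted, a gene being credited with any region that reached it or came within 10 kb. Of 20661 protein-coding genes 1211 had a sham only region (5.86%), of which 928 had exactly 1, and 44 had 5 or more (0.213%). Genes with a sham only region were longer than genes at large (median 38.8 and 17.5 kb), while those with 5 or more had a median of 11.4 kb. Of the 12875 genes with any sham peak (62.3% of all), 9.41% had a sham only region. D14 only regions were at 53.8% of all genes, and at 79.9% of genes with a sham only region (77.5 to 82.0), against 63.8% of genes with a sham peak and no sham only region (median gene length 23.2 kb over all genes with a sham peak). The part of gene length in this was not tested. Among the 44 genes with 5 or more, 24 had a D14 only region.

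Immediate-early and stress genes had the highest share of the 22 lists: 11 of 23 genes, with 35 sham only regions. After Btg2, Ier2 and Dusp1, with 5 regions in its own window, came Zfp36, an mRNA-destabilising protein gene, with 3 (folds 3.43 to 3.62). NF-kappaB subunits and feedback genes had them at 5 of 13, led by Nfkbiz, then Nfkbia, the gene of the inhibitor IκBα (3 regions), and Bcl3 (2). Heat shock and chaperone genes had them at 5 of 14. Hspa1a and Hspa1b, neighbouring and nearly identical HSP70 genes whose reads can be hard to place, had 2 each. Their 10 kb windows overlap and the folds were the same at both (3.27 and 5.21), so the same 2 regions were credited to both. Hspa5 and Hspa8 also had 2 each. AP-1 family genes had them at 5 of 15, with 37 regions. Of these regions, 22 were at Atf3, all in its cluster and not shown to be separate sites. Fosl2 had 5 regions, and Jund and Fosb had 4 each. Krüppel-like factors had them at 4 of 12, with 8 of the 13 regions at Klf4 and 2 each at Klf6 and Klf13. All genes of these 5 lists had a sham peak of some class, and 33.3% to 47.8% had a sham only region, against 9.41% of all genes with a sham peak. With 2.5 kb on either side the counts were 6, 5, 3, 3 and 4 in the order given, against 4.6% of all genes. The lists were chosen with earlier results of these data known.

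Matrix, TGF-beta, contractile and YAP-TEAD genes had sham only regions at 16.7% to 28.6% of each list, with at most 3 regions at a gene. These shares were above the 5.86% of all genes and the 9.41% of genes with a sham peak. Counted by region the lists did not stand out. Sham only were 9 of 102, 9 of 99, 3 of 54 and 4 of 41 of their sham regions, in the same order. Over all regions with a sham peak the share was 8.37%. The part of gene length in the shares of genes was not tested. Collagen and matrix genes had sham only regions at 6 of 22, with 9 regions, and 19 of the 22 had a D14 only region, against 53.8% of all genes. Fbn1, the gene of the microfibril protein fibrillin 1, had 3 and Thbs1 2, and Col3a1 and Col4a2 1 each. TGF-beta pathway genes had them at 6 of 21. Ltbp1, which encodes a latent TGF-beta binding protein, and the inhibitor genes Id2 and Id3 had 2 each, and Tgfb2, the gene of a TGF-beta ligand, had 1 (fold 4.92). Contractile genes had them at 3 of 15, 1 region each at Acta2, Tpm1 and Cald1, and 13 of the 15 had a D14 only region. YAP-TEAD genes had them at 2 of 12: 3 at Ccn1, a secreted matricellular protein gene, and 1 at Yap1.

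Fibroblast subtype markers are read against the same 5.86% and 53.8% of all genes. Alveolar fibroblast markers had sham only regions at 3 of 13, 1 region each at Wnt2, Slc7a10 and Pdgfra. Adventitial fibroblast markers had them at 2 of 15, Dpt with 2 (the gene of dermatopontin, fold up to 6.37) and Gsn with 1. Counted by region these 2 lists did not stand out. Sham only were 3 of 35 sham regions at alveolar markers and 3 of 45 at adventitial markers, near the 8.37% of all regions with a sham peak. Fibrotic fibroblast markers had a sham only region at 0 of 15 genes, which at this list size is near the share over all genes. All 15 had a D14 only region (83 regions), and 7 had a sham peak of any class, which 62.3% of all genes had. D14 only regions were also at 12 of 13 alveolar markers (54 regions) and 11 of 15 adventitial markers (38 regions). Chemokine and cytokine genes had sham only regions at 2 of 15 (Il33 with 2, Ccl11 with 1). Genes of the integrated stress and unfolded protein response had one at 1 of 9 (Xbp1).

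Runx1, Runx2, Runx3 and Cbfb had 0 sham only regions, which for so few genes is near the 5.86% of all genes. They had 20, 11, 4 and 3 D14 only regions, a kind found at 53.8% of all genes. In the RUNX family and partner list only the co-repressor gene Tle3 had any, with 2 (folds 3.62 and 3.91), of 10 genes.

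Markers of other cell types had sham only regions at shares of 0% to 10%, around the 5.86% of all genes, so these counts do not set the markers apart. Endothelial markers had one at 1 of 13 genes (Tek) and myeloid markers at 1 of 12 (Cd68, with 3, as had its neighbour Eif4a1). Pericyte and smooth muscle markers had one at 1 of 10 (Abcc9). Lymphocyte, lung epithelium and mesothelium markers and genes of other organs had one at 0 of 10, 12, 6 and 8. In the same order, genes with a sham peak of any class numbered 4, 4, 8, 4, 6, 1 and 1, where 62.3% of all genes had one. Alveolar markers had one at 13 of 13 and adventitial markers at 13 of 15. The 8 of 10 pericyte and smooth muscle markers were also above the share of all genes. A peak is no measure of expression, and fewer cells with a bound site cannot be told apart from weaker binding in each.

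**Figure D5:**
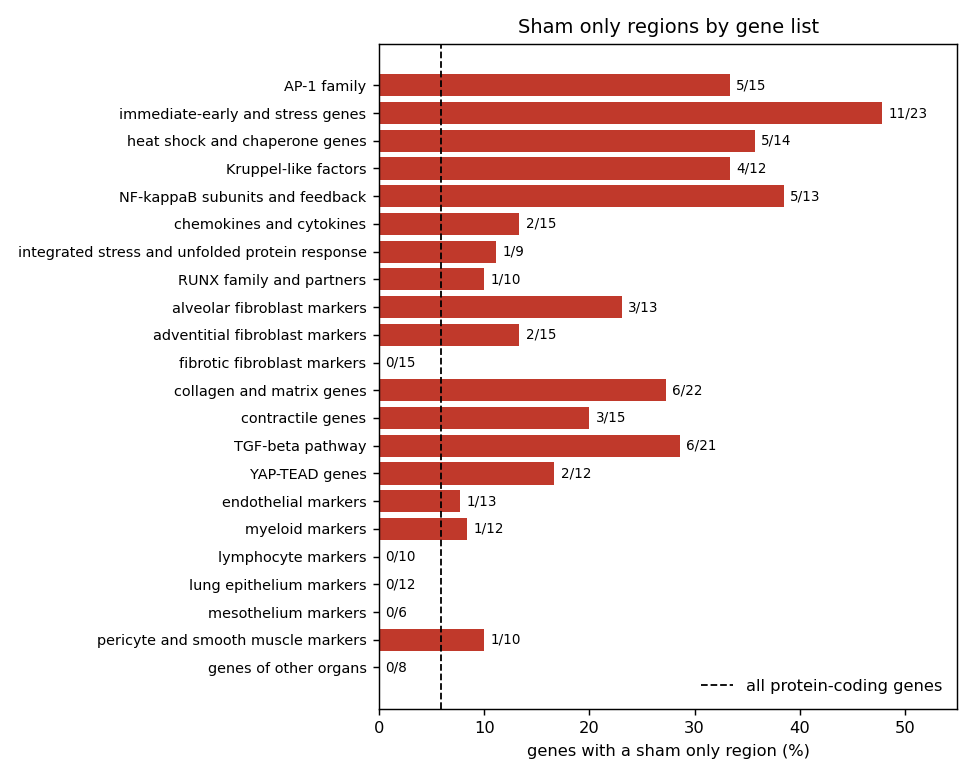
Percent of the genes of each list with a sham only region within 10 kb (bars, with counts); the dashed line is the 5.86% of all protein-coding genes. Immediate-early and stress genes stand at 11 of 23, the highest share.

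Along the chromosomes, sham only regions made up 4.69% of sham regions on chromosome 15 (3.54 to 6.18) and 10.7% on chromosome 1 (9.22 to 12.3), with the other chromosomes in between. Chromosome 1 holds the Atf3 and Btg2 clusters, with 24 and 10 of its 164 sham only regions.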

How the data were processed

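Runx1 ChIP-seq peak lists of 3 libraries (sham, D14, D56) were used; the inputs entered through the calls. The tools named in the submitters' processing notes are BWA, SAMtools and MACS2, and the build is mm10. Per the file headers, the authors called peaks with MACS 2.0.10.20120913 in each library against its own input at a q-value cutoff of 0.01; the deeper of ChIP and input was scaled down to the other. Per the file headers each peak has a pileup (signal height), a −log10 p-value and −log10 q-value and a fold (ratio to local background); these deposited values are scaled per library and were used only within a list. The deposited peak widths (in bp) were used as given.

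Peaks on chromosomes 1 to 19 were merged at 1 bp or more with Python 3.11.15 and pandas 2.3.3; SciPy 1.17.1 gave Wilson intervals. Genes came from RefSeq GRCm38.p6 tables; 79.6% of 20661 protein-coding genes had a strand. No genome was used, so motifs were searched in promoter windows only. All 299 listed genes matched a symbol, 295 of them on chromosomes 1 to 19. Members and lists were chosen with earlier results of these data known.

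Named genes follow a rule: the nearest named gene within 100 kb of the 15 regions of highest fold, the 15 genes with most regions, the genes of the 5 largest clusters, up to 4 per list, and Runx1, Runx2, Runx3 and Cbfb; others are marked. Steps were tested on simulated data. Alternatives changed the overlap, thresholds, list lengths, distances and chromosomes.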

Additional observations from a re-analysis of the deposited data

How the results depend on the processing

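Of 50 values under alternative settings, 32 stayed close to the reported one and 18 moved. All are counts or shares, which have no sign, so reversal was not assessed. The 32 include lists with 0 genes at both gene distances, where staying close says little. These are fibrotic fibroblast, lymphocyte, lung epithelium and mesothelium markers and genes of other organs. The number of sham only regions, 2004, was 5003 with a reciprocal overlap of 50% (counted in peaks), 1296 with peaks less than 500 bp apart merged, 955 with a fold of 5 or more in all lists (238 of them members) and 1239 with no D14 or D56 peak closer than 1 kb. With summits within 200 bp it was 2936 (counted in peaks), a value counted among the 32 although it is well above 2004. With the lists cut to the 14704 strongest peaks it was 2029, of which 201 were members, so the number was similar and most regions differed. This value too is among the 32. The share within 1 kb of a gene end was 12.3% with protein-coding genes alone and 32.5% at 2.5 kb. The share within 1 kb of a D14 peak was 34.6% with a −log10 q of 5 or more in sham and 18.1% with a fold of 5 or more in all lists. The share with a neighbour was 20.7% at 2 kb and 36.3% at 20 kb. Regions in clusters of 5 or more, 175, were 97 at 2 kb, 86 with the stricter sham list and 67 with no D14 or D56 peak closer than 1 kb; the downstream share was 43.3% at 2 kb and 55.2% in the last. With 2.5 kb beside genes, immediate-early and stress genes with a region numbered 6, AP-1 genes 3 and heat shock genes 3. The cluster settings and the 1 kb exclusion were added after seeing the data. The cause of these shifts was not tested beyond what each setting changes. The motif share over whole regions was not run, as no genome was used. No paired analysis was possible because each condition has 1 library. Inputs held 39609538 tags in sham, 49312043 at D14 and 19949187 at D56, so absence at D56 rests on a shallower comparison.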
